A study of Homo sapiens with 60 samples.

Results

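The nuclear-encoded subunits of the oxidative phosphorylation system were followed in HepG2 cells, a human hepatocellular carcinoma line, after 24 h with herbal extracts or vehicle. The members were taken by a rule on gene names: a row of the count table was a member where its Ensembl identifier maps to a protein-coding symbol that begins with NDUFA, NDUFB, NDUFC, NDUFS or NDUFV and a digit, with UQCR, with COX4 to COX8, or with ATP5F, ATP5M or ATP5P, or that is SDHA, SDHB, SDHC or SDHD. This gave 88 members among 60675 rows: 39 of complex I, 4 of complex II, 9 of complex III, 17 of complex IV and 19 of complex V. Of these, 81 had enough counts to be tested, among 16924 tested genes. The names leave out CYC1, NDUFAB1 and ATP5IF1, place NDUFA4 under complex I although its protein works in complex IV, and take in COX7A2L, which acts in supercomplexes, and the readthrough rows NDUFC2-KCTD14 and ATP5MF-PTCD1.

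The cells received Yijin-tang water extract, Soshiho-tang water extract, or a 70% ethanol extract of Liriopis seu Ophiopogonis Tuber, Schisandrae Fructus, Longan Arillus, Zizyphi Semen, Polygalae Radix or Aucklandiae Radix, called Yijin, Soshiho, Liriope, Schisandra, Longan, Zizyphus, Polygala and Aucklandia from here on. Low, medium and high doses were 20, 100 and 500 µg/mL for the first 6 extracts, 10, 50 and 250 µg/mL for Polygala, and 11.2, 56 and 280 µg/mL for Aucklandia. Vehicle was DMSO, at 0.1% in the sample labels and 2% in the series text. Vehicle and each replicated dose group had 3 libraries, apart from those of Soshiho with 2, and Polygala and Aucklandia had 1 library at each dose. The labels do not say that replicates are separate cultures, so the spread behind each p-value may be a technical one. The sample codes set vehicle apart from every extract. They run in common for Yijin and Soshiho, for Liriope and Schisandra, for Longan and Zizyphus, and for Polygala and Aucklandia. A difference from vehicle and a difference between code sets therefore cannot be told apart.

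Oxidative phosphorylation passes electrons from NADH and succinate through complexes I to IV of the inner mitochondrial membrane to oxygen, and complex V uses the proton gradient built on the way to make ATP. Complexes I, III, IV and V are mosaics of proteins from nuclear and mitochondrial genes, whereas complex II is encoded in the nucleus alone. In hepatocytes this system supplies the ATP for gluconeogenesis, urea synthesis and protein export. The nuclear genes of the system are known for shared promoter elements, among them sites for NRF1, for the ETS factor GABP, for YY1 and for ERR alpha.

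Promoter letters were read to show what the members share beyond their names. RefSeq windows on GRCh38.p14, running from 250 bases before to 50 after the start, matched 69 of the 88 members, with the first-listed window taken for each gene. They were searched on both strands for GCATGCGC (NRF1 core), CCGGAAG (ETS core), AAGATGGC (YY1 core) and TCAAGGTCA (ERR element). The first of these reads as GCGCATGC on the opposite strand, and its matches on the 2 strands can overlap. The NRF1 core was in 13 of the 69 windows (18.8%, against 4.28% of 15221 protein-coding windows and 3.27% of all 27305). The ETS core was in 20 (29%, against 14.4% and 10.7%), the YY1 core in 11 (15.9%, against 3.99% and 3.03%) and the ERR element in 1, that of SDHD (1.45%, against 0.237% and 0.359%). At least 1 of the 4 motifs was in 34 windows (49.3%, against 20.8% of protein-coding windows). The 250 bases before the start are printed for 1 member each of complexes I, II, III and V that carry these letters, with NRF1 and ETS cores on either strand in capitals; a match is a description of letters only.
NDUFS3 promoter, chr11:47578824-47579073, plus strand: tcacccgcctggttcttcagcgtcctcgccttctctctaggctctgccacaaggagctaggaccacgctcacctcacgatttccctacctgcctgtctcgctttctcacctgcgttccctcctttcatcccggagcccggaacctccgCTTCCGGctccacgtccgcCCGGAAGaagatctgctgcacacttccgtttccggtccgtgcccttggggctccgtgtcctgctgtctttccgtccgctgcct
SDHB promoter, chr1:17054033-17054282, minus strand: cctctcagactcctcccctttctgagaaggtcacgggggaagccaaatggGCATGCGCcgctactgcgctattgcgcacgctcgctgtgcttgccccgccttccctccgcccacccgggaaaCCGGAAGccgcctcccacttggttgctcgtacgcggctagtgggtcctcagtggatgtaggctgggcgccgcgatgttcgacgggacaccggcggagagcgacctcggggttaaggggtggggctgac
UQCRQ promoter, chr5:132866392-132866641, plus strand: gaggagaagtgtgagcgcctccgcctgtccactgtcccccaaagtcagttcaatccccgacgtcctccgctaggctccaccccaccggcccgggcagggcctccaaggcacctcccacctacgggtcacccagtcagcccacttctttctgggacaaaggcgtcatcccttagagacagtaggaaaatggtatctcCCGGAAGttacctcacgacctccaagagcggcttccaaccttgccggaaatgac
ATP5ME promoter, chr4:674277-674526, minus strand: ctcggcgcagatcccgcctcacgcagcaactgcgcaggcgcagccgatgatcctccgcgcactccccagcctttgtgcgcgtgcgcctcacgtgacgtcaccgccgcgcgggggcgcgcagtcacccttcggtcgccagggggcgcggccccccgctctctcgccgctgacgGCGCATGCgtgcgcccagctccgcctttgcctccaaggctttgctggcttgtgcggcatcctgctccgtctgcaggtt
NDUFS3, a core subunit of the hydrogenase-like arm of complex I, carries the ETS core in both orientations. SDHB, the iron-sulphur subunit of complex II, carries 1 NRF1 and 1 ETS core in the printed bases. UQCRQ, a small subunit of complex III, carries 1 ETS core. ATP5ME, the e subunit of complex V, carries 1 NRF1 core. Of the 12 members that were higher than vehicle in every replicated extract, 9 had a window, and 4 of these 9 (NDUFV1, NDUFB2, COX5A and ATP5F1A) held none of the 4 motifs.

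The 60 libraries held 20.7 to 38 M counts (M for 1e6). The hepatocyte markers were counted in all of them, with ALB at 3411 to 10265 CPM (counts per 1e6 counts, on library sizes scaled by TMM). The lowest of these markers was TTR, at 30.0 to 112 CPM. Of 10 markers of other cell types, PTPRC, CD3E and COL1A2, which mark leukocytes and fibroblasts, were at 0 in 56, 58 and 54 libraries, VWF and COL1A1 reached at most 1.245 and 1.45 CPM, and TUBB3 (85.1 to 275 CPM), CD68 (13.9 to 68 CPM), ACTA2 (9.09 to 65.7 CPM), PDGFRB (6.01 to 19.9 CPM) and PECAM1 (1.14 to 6.23 CPM) were counted in all 60. None of the 51 pairs of replicates held identical values. Replicate 1 of Schisandra at the low dose and replicate 2 of Liriope at the high dose stood farthest from their replicates. They held 38 and 37.6 M counts. Results for the members that turn on these 2 libraries are given with and without them.

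In vehicle the members were expressed at levels that ranged widely within each complex. Levels of different genes are compared per kilobase of merged exon. The median was 15.4 CPM per kb for complex I, 15.7 for complex II, 23.1 for complex III, 26.9 for complex IV and 21.4 for complex V. In complex I, NDUFS5, an accessory subunit, had the highest level per length (101 ± 4.16 CPM per kb, SD, n = 3), and the readthrough row NDUFC2-KCTD14 the lowest, at 0 in all 3 vehicle libraries. NDUFC2-KCTD14 reads cannot be told apart with certainty from those of NDUFC2. Complex II ran from SDHC, a membrane anchor (7.07 ± 0.0847 CPM per kb), to SDHA, the flavoprotein that oxidizes succinate (19.4 ± 0.472). Complex III ran from UQCRHL, an intronless copy of UQCRH whose reads can be shared with it (2.75 ± 0.288), to UQCR10, a small subunit (82.1 ± 2.82). In complex IV the lowest tested member was COX6C (8.85 ± 0.390) and the highest COX8A (140 ± 18.3), both small structural subunits. Complex V ran from the readthrough row ATP5MF-PTCD1 (5.55 ± 0.493) to ATP5F1B, the catalytic beta subunit (223 ± 11.8). This order and the medians rest on the length used. Per kilobase of the principal transcript, the medians were 32.6, 32.3, 58.0, 47.0 and 72.0 CPM per kb for complexes I to V. By that length the highest members were NDUFA11, SDHA, UQCRC2, COX4I1 and ATP5MF, at 146, 68.0, 91.8, 180 and 289 CPM per kb.

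The highest and lowest tested members lie on GRCh38 at these places in GENCODE 29. NDUFS5 spans chr1:39026318-39034636, SDHA chr5:218241-256700, SDHC chr1:161314257-161375340 and UQCR10 chr22:29767369-29770413. UQCRHL spans chr1:15807169-15809348, COX8A chr11:63974607-63976543 and ATP5F1B chr12:56638175-56646068. These are spans of whole protein-coding genes, and the counts are of their exons.

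Of the 7 untested members, 6 are isoforms known from other tissues. COX6A2 and COX7A1 are heart and muscle forms, COX6B2, COX7B2 and COX8C are testis forms, and COX4I2 is best known from lung. COX6A2 and COX7B2 were at 0 in all 60 libraries. COX4I2 reached at most 2 counts and COX8C at most 1 count in any library. COX6B2, COX7A1 and ATP5MGL, a copy of the g subunit gene of complex V, reached at most 0.398, 0.265 and 0.212 CPM. Of the muscle and testis markers, ODF1 was at 0 in all 60 libraries and PRM1 in 41, while CKM was counted in all 60 (at most 0.994 CPM) and MYH7 was at 0 in 2 (at most 0.494 CPM). NDUFA4L2, a hypoxia-linked relative of NDUFA4, passed the filter at 0.132 CPM in vehicle. The 173 pseudogene rows named after members summed to 2.55 to 10.2 CPM per library, against 3482 to 7132 CPM for the members.

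The members as a whole made up 5484 ± 175 CPM in vehicle (SD, n = 3), with the 3 libraries at 5282, 5589 and 5580. The 51 libraries of the 6 replicated extracts ran from 5024 through a median of 6017 to 7132 CPM, and 46 of them lay above all 3 vehicle libraries. By complex, 50 of 51 lay above vehicle for complex II, 48 for complex V, 46 for complex IV, 42 for complex I and 38 for complex III. The totals had no common order by dose over these 6 extracts. Yijin averaged 5954 ± 231, 6049 ± 22.7 and 5966 ± 134 CPM from low to high dose (SD, n = 3 each), and Longan 6105 ± 225, 6184 ± 314 and 6137 ± 148. The means went up from low to high dose in Soshiho (5964 ± 164, 6005 ± 29.4 and 6063 ± 26.2 CPM, n = 2 each) and in Liriope (5576 ± 490, 5941 ± 208 and 5950 ± 616, n = 3 each), in both by less than the spread at the low dose. In Schisandra they went down (6257 ± 769, 6208 ± 302 and 5969 ± 56.5 CPM, n = 3 each), but low dose replicate 1 held 7132, and without it the low-dose mean was 5820 ± 183 (n = 2). Without high dose replicate 2 the Liriope high-dose mean was 5601 ± 161 (n = 2). Zizyphus had 5943 ± 678, 5813 ± 277 and 5870 ± 552 CPM. In both extracts with 1 library per dose the high-dose total was below every other library: 3482 CPM in Polygala and 4126 in Aucklandia.

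**Figure D1:**
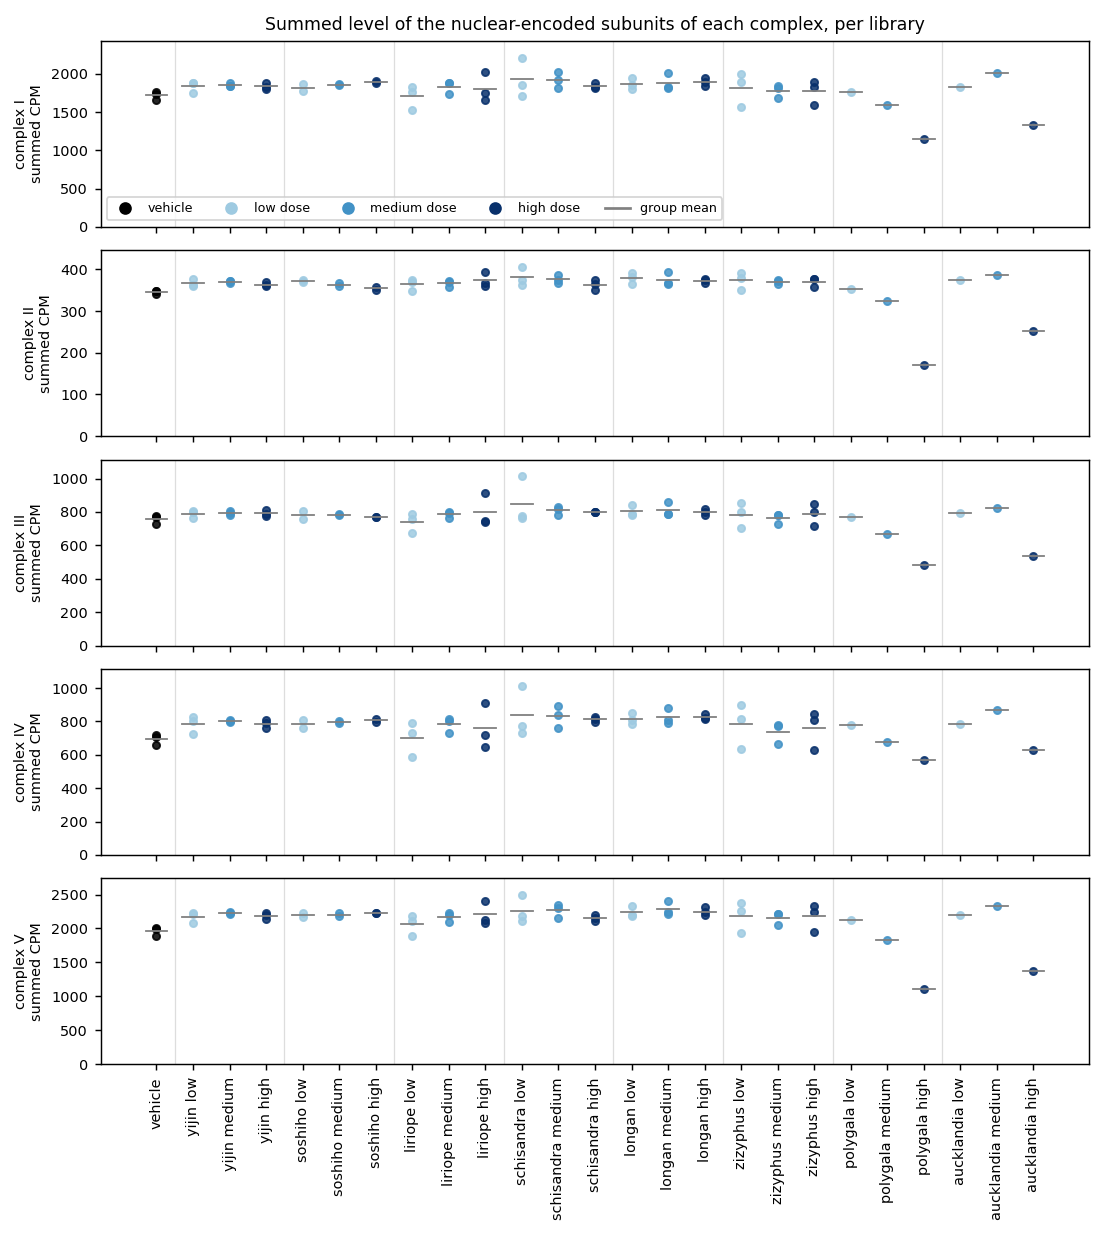
Summed CPM of the nuclear-encoded members of each complex (vertical axes, starting at 0) in each library (points, coloured by dose) for vehicle and each extract and dose (horizontal axis), with the group mean as a grey line. The high-dose Polygala library is the lowest in every panel, and the high-dose Aucklandia library is the next lowest except for complex IV. The doses of the other 6 extracts overlap, apart from Soshiho with 2 libraries per dose. Soshiho complex II falls without overlap from low (368 and 375) through medium (366 and 360) to high dose (359 and 351 CPM). In complex I its high-dose libraries (1884 and 1907 CPM) lie above those of its other doses.

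Between replicates of the same group, the members moved up and down together. For each of the 54 libraries with a replicate, the log2 level of each tested member was set against the mean of its group, and the median over the 81 members was taken. This median ran from -0.24 in Zizyphus low dose replicate 2 to 0.22 in Schisandra low dose replicate 1, with a pooled SD of 0.117. In Zizyphus low dose replicate 2 only 1 member was above its group mean, and in Zizyphus low dose replicate 1 it was 79. Liriope high dose replicate 2 had 75 of 81 above, and Liriope low dose replicate 3 had 5. In those libraries most members thus lay on the same side of their group mean.

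The shift was not evenly shared by the complexes. Complex II, with 4 members, had a pooled SD of 0.0541, complex I 0.113, complex V 0.122, complex III 0.134 and complex IV 0.152. Other genes moved with them. The 84 cytosolic ribosomal protein genes moved in the same direction in 51 of 54 libraries and over a similar range (pooled SD 0.132). The 78 mitochondrial ribosomal protein genes did so in 47, and 675 other genes whose transcript is at most 1 kb in 50, over a smaller range (pooled SD 0.0754). The 4462 genes with transcripts over 4 kb moved in the opposite direction in 36, and the 13 mitochondrially encoded genes in the same direction in 35. The libraries of a group share its mean, so these counts are not independent, and they are given as a description. The part of transcript length in the shift was not tested.

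**Figure D2:**
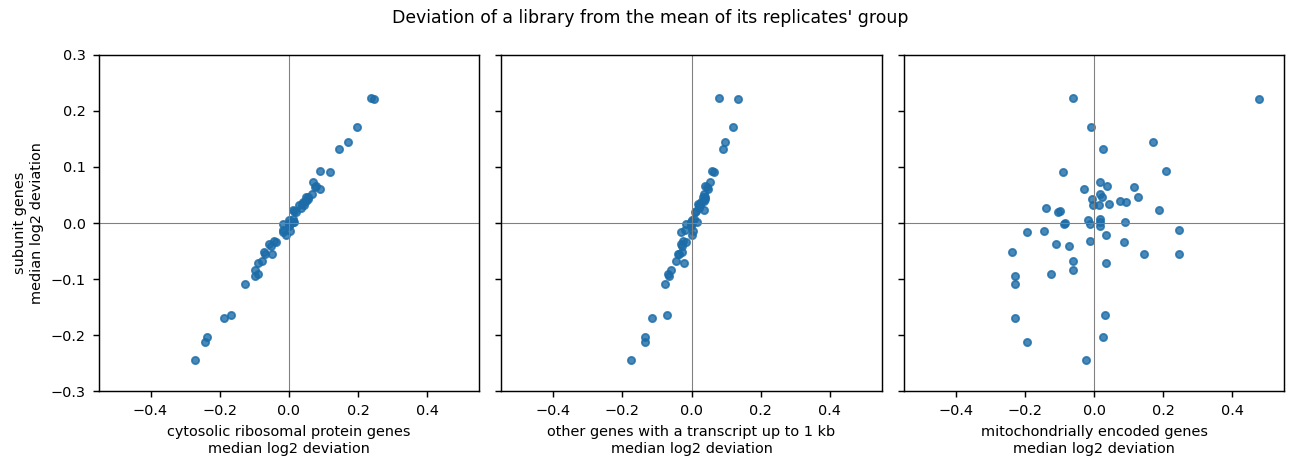
Each point is 1 of 54 libraries; the vertical axis is the median log2 deviation of the 81 tested members from the mean of the group, and the horizontal axes are the same measure for cytosolic ribosomal protein genes, other genes with transcripts up to 1 kb, and mitochondrially encoded genes. The members share their direction with the ribosomal protein genes in 51 libraries and with the mitochondrially encoded genes in 35.

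Between 2 replicates of a group, a median of 1 of the 78 members of at least 10 CPM differed by over 0.32 on the log2 scale, the mark of size used for single libraries, but the range over the 51 pairs was 0 to 55. The widest pairs were Zizyphus low dose replicates 1 and 2 (55 members), Schisandra low dose replicates 1 and 3 (50) and Liriope high dose replicates 2 and 3 (48). In the first and last of these pairs all such members lay in 1 direction, and in the second all but 1.

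The question of dose was asked within each extract, as high against low dose, since those libraries share a code set. No member passed edgeR's quasi-likelihood test at a Benjamini-Hochberg adjusted p under 0.05 in any of the 6 replicated extracts. Among all genes tested the share called was 7.79% in Yijin, 5.08% in Soshiho, 0.0295% in Liriope, 7.33% in Schisandra, 0.0177% in Longan and 0.0355% in Zizyphus. At an unadjusted p under 0.05 edgeR gave 0, 2, 3, 6, 1 and 0 of the 81 members in that order. DESeq2 also called 0 members in each extract, with 0, 2, 4, 5, 0 and 0 at its unadjusted p. The median log2 change of the members was 0.00, 0.05, 0.11, -0.08, 0.01 and -0.03. Without the 2 libraries that stand apart it was 0.00 in Liriope and 0.04 in Schisandra. In Yijin, Soshiho and Schisandra, where the share called among all genes was largest, the members' counts of 0 fell below it. These zeros moved with some choices. In Schisandra, 3 or 4 members were called without its low dose replicate 2 or 3. In Soshiho, 4 were called with only its own high-dose and low-dose libraries in the fit. With no filter on low counts the 6 extracts had 1, 2, 4, 10, 1 and 1. The shares of all genes called under these choices are not given.

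How large a change these data leave room for differed by extract. The 95% interval of the log2 change lay within 0.32 in either direction for 61 of 81 members in Yijin, 34 in Soshiho, 39 in Liriope, 46 in Schisandra, 66 in Longan and 52 in Zizyphus. For the others a change of 0.32 was within the interval. Medium against low dose gave 0 members called in every extract, against shares called of 0.00591, 0.118, 0, 0.0709, 0 and 0.00591% of all genes in the same order. At an unadjusted p under 0.05 edgeR then gave 3 members in Liriope, 3 in Schisandra and 0 in the other 4, and DESeq2 was not run on that comparison.

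The member with the smallest adjusted p was NDUFB1, an accessory subunit of the membrane arm of complex I, in Schisandra. Its libraries read 25.2, 13.5 and 11.3 CPM at the low dose and 12.9, 12.8 and 10.5 at the high dose. The groups overlapped, and low dose replicate 1, one of the libraries that stand apart, held the high value. The log2 change was -0.49 ± 0.17 (SE), with an edgeR adjusted p of 0.0666, and -0.05 ± 0.15 (0.933) without the 2 libraries that stand apart. ATP5MF-PTCD1 in the same extract read 8.83, 13.6 and 12.6 CPM at the low dose and 13.4, 13.8 and 15.5 at the high dose, again with low dose replicate 1 apart, for a log2 change of 0.31 ± 0.11 and an edgeR adjusted p of 0.0898. Without the 2 libraries it was 0.12 ± 0.11 (edgeR adjusted p 0.691). SDHB in Liriope had a log2 change of 0.21 ± 0.07 and an edgeR adjusted p of 0.564, or 0.12 ± 0.08 (0.945) without the 2 libraries. No member met the rules for naming members called in high against low dose, and these 3 were chosen after their values were seen.

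Whether extracts differed from each other in their dose response was tested as an interaction. No member was called in Yijin against Soshiho (0.88% of all genes), Schisandra against Liriope (4.11%), Longan against Zizyphus (0.00591%) or Schisandra against Yijin (0.957%). The count at edgeR's unadjusted p under 0.05 was 0, 14, 0 and 1, and DESeq2 was not run on these differences. All 14 in Schisandra against Liriope were lower in Schisandra. The closest to a call was ATP5F1C, the gamma subunit that turns inside the complex V head (difference -0.35 ± 0.12, edgeR adjusted p 0.0868). ATP5F1C read 128, 95.1 and 95.3 CPM at the Schisandra low dose and 99.4, 98.3 and 90.8 at the high dose, against 97.0, 92.3 and 82.1 and then 95.8, 124 and 95.3 in Liriope. The values of 128 and 124 belong to the 2 libraries that stand apart. Without them the difference was -0.07 ± 0.10 (edgeR adjusted p 0.878), no member was called, and 3 were at an unadjusted p under 0.05, 1 lower and 2 higher. Without them Schisandra against Yijin had 0 at that level.

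A few genes around the complexes were called with dose. ETFB, a subunit of the flavoprotein that feeds electrons from fatty acid oxidation into the chain, rose with dose in Yijin (log2 change 0.29 ± 0.07, edgeR adjusted p 0.00775), Soshiho (0.62 ± 0.09, 3.91e-06) and Schisandra (0.35 ± 0.07, 0.00155). It was the only one of the 8 tested electron carriers and feeders outside the name rule that was called in any of the 6 extracts. CS, citrate synthase, fell in Soshiho (-0.22 ± 0.04, edgeR adjusted p 0.000231), the only called gene of 18 in the citric acid cycle and pyruvate dehydrogenase list there. Among 15 regulators of mitochondrial biogenesis, PPARGC1A, the coactivator PGC-1 alpha, rose in Schisandra (0.37 ± 0.09, edgeR adjusted p 0.00508), while TFAM, which packs mitochondrial DNA, fell (-0.21 ± 0.06, 0.0277). Of 23 assembly factors of complex IV, SURF1 rose (0.26 ± 0.08, edgeR adjusted p 0.0451) and COX11, which delivers copper, fell (-0.19 ± 0.06, 0.0318) in Schisandra. These Schisandra calls, with that of ETFB, include low dose replicate 1, which stands apart. Whether they hold without it was not tested.

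**Figure D3:**
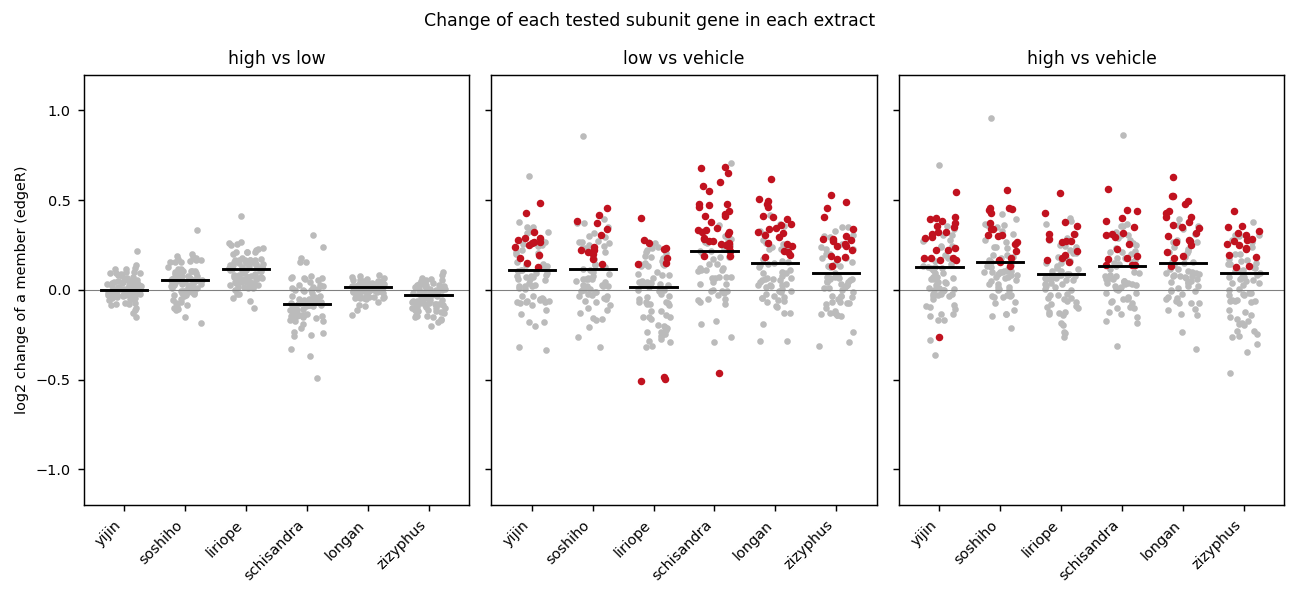
Log2 change of each tested member by edgeR (vertical axis) in each of the 6 replicated extracts (horizontal axis) for high against low dose, low dose against vehicle and high dose against vehicle; red points passed an adjusted p of 0.05 and black lines are medians. The axis ends at 1.2 in both directions and leaves out 4 points of NDUFA4L2 and 12 of NDUFC2-KCTD14, which have few counts; no red point appears in the first panel.

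Against vehicle, part of the members were higher in every replicated extract. At the high dose 21 members were higher and 1 lower in Yijin, 19 and 0 in Soshiho, 15 and 0 in Liriope, 18 and 0 in Schisandra, 24 and 0 in Longan and 17 and 0 in Zizyphus, of 81 tested. The share of all genes called higher was 11.1, 10.6, 8.56, 10.8, 9.64 and 8.15%, and lower 12.2, 11.1, 8.21, 11.2, 9.98 and 8.73%. Either way, 27.2, 23.5, 18.5, 22.2, 29.6 and 21% of members were called, beside 23.4, 21.8, 16.8, 22.1, 19.6 and 16.9% of all genes. The share of members called in either direction was thus near that of all genes, apart from Longan. With all libraries the members called were higher, apart from 1 in Yijin, where the calls over all genes were split nearly evenly. The median log2 change of the members was 0.13, 0.16, 0.09, 0.13, 0.15 and 0.09. All 6 comparisons share the same 3 vehicle libraries, so their likeness is no repetition.

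The difference was already there at the low dose. Low dose against vehicle gave 15 higher and 0 lower in Yijin, 13 and 0 in Soshiho, 8 and 3 in Liriope, 32 and 1 in Schisandra, 23 and 0 in Longan and 18 and 0 in Zizyphus. Beside these, 7.11, 5.48, 7.62, 10.5, 9.74 and 7.79% of all genes were called higher and 8.12, 6.45, 8.96, 11, 10.4 and 8.76% lower. The Schisandra count rests on its low dose replicate 1. Without the 2 libraries that stand apart, 15 members were called there in either direction, 26 in Yijin, 23 in Soshiho and 17 in Liriope. The low-dose groups of Yijin, Soshiho and Liriope lost no library in that fit. Its shares of all genes called are not given, so its counts are not read as particular to the members. At the high dose, leaving both out raised the Schisandra count to 28 and turned part of the Liriope calls: 10 members were higher and 6 lower (ATP5MF, COX6A1, COX6B1, NDUFA7, NDUFS8 and UQCR10), with a median of -0.01 in place of 0.09.

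These counts lean on single libraries and on the fit. The shares of all genes called under the same changes are not given beside them, so the moves are not read as particular to the members. Without vehicle replicate 1 the members called in either direction were 11, 10, 8, 8, 15 and 8 at the high dose and 6, 6, 7, 21, 13 and 6 at the low dose, in the order of extracts used above. Leaving out Soshiho high dose replicate 2 or 3 left 7 or 8, Zizyphus high dose replicate 1 or 2 left 8 or 9, and Yijin high dose replicate 2 left 13. At the low dose, leaving out Yijin replicate 2 or 3 left 9 or 7, Soshiho replicate 2 or 3 left 4 or 3, Zizyphus replicate 1 left 7, and Schisandra replicate 1 left 10. For Liriope at the low dose, the count without vehicle replicate 3 was 7. Scaled by library size alone, the high-dose counts were 38, 36, 31, 34, 44 and 33, with no filter on low counts 38, 30, 30, 32, 37 and 35, and with only the libraries of the 2 groups in the fit 42, 32, 3, 34, 37 and 11. Other gene groups moved with the members and are given beside them. Of 84 cytosolic ribosomal protein genes, 23, 26, 19, 25, 32 and 18 were higher at the high dose. Of the 13 mitochondrially encoded genes, 13, 6, 12, 12, 13 and 13 were lower. Their summed level was 165240, 127880 and 129120 CPM in the vehicle libraries, where 60 libraries ran from 65984 to 165240. Vehicle also had the TMM factors 0.896, 0.931 and 0.930, against a median of 1.00 over the 60 libraries. With a smooth trend on gene length and GC content taken out of each library, the high-dose counts were 20, 19, 19, 20, 27 and 22. The part of the ribosomal and mitochondrially encoded genes in the members' difference was not tested.

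By complex, the higher calls at the high dose were 10, 9, 7, 8, 12 and 8 of 39 in complex I, in the order of extracts used above. Complex II had 2, 1, 2, 1, 2 and 2 of 4. Complex III had 0, 0, 0, 1, 1 and 1 of 9. Complex IV had 3, 3, 2, 4, 4 and 2 of 11 tested, and complex V 6, 6, 4, 4, 5 and 4 of 18. The median log2 change was largest for complex IV in each extract (0.24, 0.30, 0.19, 0.26, 0.28 and 0.16). By library against the vehicle mean, Liriope replicates 1, 2 and 3 had medians of 0.06, 0.42 and 0.02 for complex IV. For complex II they had 0.11, 0.27 and 0.08. Complex IV was thus above complex II only in replicate 2, which stands apart. In Zizyphus complex IV was above complex II in replicates 1 and 2 but not in replicate 3 (-0.06 beside 0.05).

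The same 12 members were called higher than vehicle in all 6 extracts at the high dose, and 6 of them (ATP5F1A, ATP5F1B, NDUFA9, NDUFB2, NDUFV1 and SDHC) also in all 6 at the low dose. They were singled out after their values were seen, and the number of all genes called higher in all 6 extracts is not given beside them. NDUFA8, NDUFA9 and NDUFB2 kept the call in each of the 83 pairs of an extract and an alternative fit run for a member over the 6 extracts. The other 9 each lost the call in at least 1 extract when 1 library was left out: the fewest in ATP5F1A (1 fit, Soshiho without high dose replicate 2, adjusted p 0.132 by edgeR) and ATP5F1B (1 fit, Schisandra without vehicle replicate 1, 0.0946), the most in NDUFS1 (17 fits) and ATP5PO (13 fits). For 9 of the 81 members every one of the 51 treated libraries lay above all 3 vehicle libraries. The share of all genes that lay apart in this way is not given, so this is not read as particular to the members.

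In the peripheral arm of complex I, NDUFV1 binds the flavin that accepts electrons from NADH. NDUFV1 read 65.5, 76.9 and 76.3 CPM in vehicle and 77.7 to 95.9 (median 87.1) in the 51 treated libraries. No treated library overlapped vehicle, and vehicle replicate 1 was the lowest of all. Its log2 change at the high dose was 0.21 to 0.34 over the 6 extracts, with edgeR adjusted p from 0.000134 to 0.00900. NDUFS1, the large iron-sulphur subunit next to it, read 171, 167 and 170 CPM in vehicle and 175 to 205 in treated libraries (median 184). The groups did not overlap, though the change was small (0.13 to 0.18). NDUFS3 of the same arm read 44.1, 52.7 and 51.5 CPM and then 53.1 to 72.8 (median 60.7), with no overlap and changes of 0.26 to 0.40.

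Of the accessory subunits of complex I, NDUFB2, NDUFA8 and NDUFA9 were among the 12. NDUFB2 of the membrane arm read 16.1, 16.6 and 18.8 CPM in vehicle and 18.8 to 30.0 (median 25.0) in treated libraries, 50 of 51 of them above vehicle. Its log2 change was 0.44 ± 0.11 in Zizyphus to 0.63 ± 0.11 in Longan, with edgeR adjusted p from 3.34e-05 to 0.00306. NDUFA8 read 18.2, 20.4 and 19.9 CPM and then 20.7 to 28.6 (median 24.3). NDUFA8 did not overlap between the groups, with changes of 0.35 to 0.46. NDUFA9, which helps shape the quinone site, read 34.0, 34.1 and 33.5 CPM and then 37.2 to 46.4 (median 41.1). The 3 vehicle libraries lay close together and below all treated ones, and the change was 0.26 to 0.32 (edgeR adjusted p from 1.05e-05 to 0.000227).

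In complex II, SDHC read 101, 98.8 and 101 CPM in vehicle and 106 to 130 (median 112) in treated libraries. All 51 were above vehicle, by a log2 change of 0.13 to 0.18. In complex IV, COX5A, a matrix-side subunit, read 53.3, 67.4 and 58.1 CPM and then 61.3 to 82.8 (median 75.9). The groups overlapped for COX5A, with 46 of 51 above vehicle replicate 2, its highest vehicle library, and the change was 0.27 to 0.44.

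In complex V, the alpha and beta subunits form the head in which ATP is made. ATP5F1A, the alpha subunit, read 389, 400 and 391 CPM in vehicle and 430 to 507 (median 465) in treated libraries. No treated library overlapped vehicle, and the log2 change was 0.17 to 0.28, with edgeR adjusted p from 7.92e-06 to 0.00641. ATP5F1B, the beta subunit, read 487, 531 and 537 CPM and then 554 to 628 (median 591), with no overlap and changes of 0.14 to 0.23. ATP5MC3, which encodes the c subunit of the membrane ring, read 128, 136 and 140 CPM and then 131 to 185 (median 167), with 48 of 51 above vehicle. ATP5PO, the subunit that ties the head to the stator, read 55.1, 58.8 and 60.04 CPM and then 52.6 to 89.4 (median 72.0), with 49 of 51 above.

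**Figure D4:**
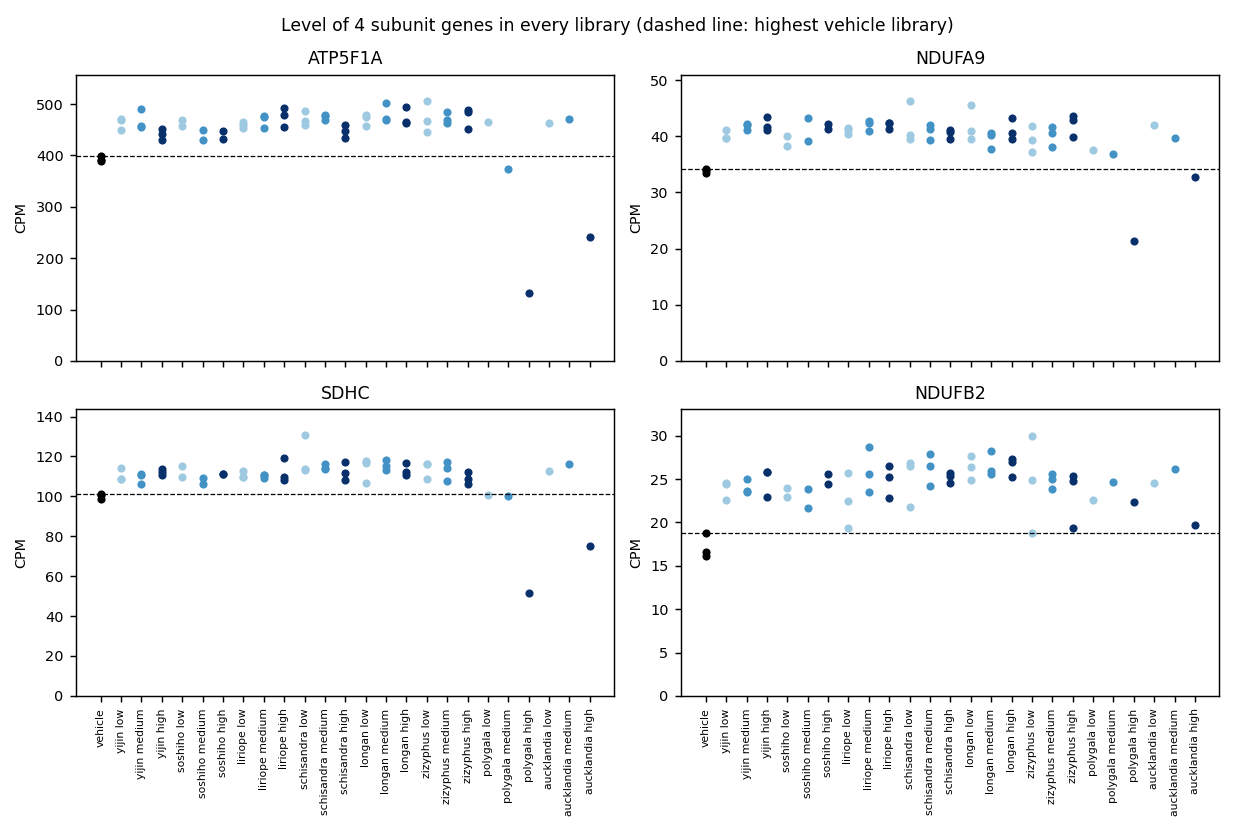
CPM of ATP5F1A, NDUFA9, SDHC and NDUFB2 (vertical axes, starting at 0) in every library, by extract and dose (horizontal axes), with a dashed line at the highest vehicle library. Every library of the 6 replicated extracts is above the line for the first 3 genes and 50 of 51 are for NDUFB2; the high-dose Polygala and Aucklandia libraries fall below it for the first 3.

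Fewer members went the other way. At the high dose 10 of 81 had a fitted change below 0 in all 6 extracts and 46 above 0, and at the low dose 12 and 40. These comparisons share vehicle, and the share of all genes with 1 sign in all 6 is not given. NDUFS8, an iron-sulphur subunit of complex I, read 62.6, 67.8 and 66.1 CPM in vehicle and 54.1, 56.8 and 52.6 at the Yijin high dose. The groups did not overlap, and the log2 change was -0.26 ± 0.09 (edgeR adjusted p 0.0351), the only member called lower at a high dose with all libraries in the fit. NDUFS8 had a fitted change below 0 in the other 5 extracts too, from -0.24 to -0.11, none of them called. At the Liriope low dose, ATP5MF (72.6, 66.5 and 47.5 CPM, against 93.2, 85.3 and 85.8 in vehicle), NDUFA7 (20.8, 20.9 and 16, against 26.4, 28.3 and 26.6) and UQCRHL (4.73, 3.89 and 4.01, against 5.61, 5.67 and 6.73) were called lower. For ATP5MF and NDUFA7 the lowest library was replicate 3, in which the members as a whole were low. At the Schisandra low dose, ATP5MF-PTCD1 was called lower (-0.46 ± 0.11, edgeR adjusted p 0.00239), with replicate 1 the lowest library. Without the 2 libraries that stand apart it was not called (-0.27 ± 0.11, edgeR adjusted p 0.0809).

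Genes around the complexes differed from vehicle as follows at the high dose, again in the order of extracts used above. Of 8 electron carriers and feeders, 6, 6, 5, 4, 5 and 5 were higher. Of 23 assembly factors of complex IV, 8, 7, 9, 8, 8 and 4 were higher. Of 18 assembly factors of complex I, 5, 3, 2, 2, 3 and 3 were higher. For the carriers and the assembly factors only the higher calls are given, so no lean to one side is read from them. Of 18 citric acid cycle genes, 3, 5, 4, 3, 3 and 4 were higher and 2, 2, 2, 4, 2 and 3 lower. The 15 biogenesis regulators gave 5, 3, 2, 2, 2 and 3 higher and 0, 1, 2, 3, 1 and 1 lower. None of these counts is tested against that of the members.

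Polygala and Aucklandia had 1 library per dose, so there is no replicate check and no test for them. The 78 of 88 members that reached 10 CPM in the vehicle mean or the high-dose library are described, by the difference of log2(CPM + 1), and are counted as lower or higher past 0.32. A fold on this scale understates the change of low genes. The high doses of these 2 extracts (250 and 280 µg/mL) differ from each other and from the 500 µg/mL of the rest, so values are set side by side only. In bulk RNA, fewer cells in a state and less RNA per cell cannot be told apart.

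Most members were lower at the high dose of Polygala. Of 78, 54 were lower than at the low dose by over 0.32, where 33.5% of all genes kept were, and 2 were higher, where 30.4% of all genes were. The median difference was -0.55, beside -0.01 for all genes. On library size alone it was -0.32 beside 0.26 for all genes, and 5 members were higher. In all, 72 members were below 0, 55 were lower at each step of dose, and 52 lay below all 54 replicated libraries at the high dose. Shares of all genes are not given beside these counts, which describe the members alone. By complex, 28 of 37 were lower in complex I, 3 of 4 in complex II, 3 of 8 in complex III, 8 of 11 in complex IV and 12 of 18 in complex V. The summed level at the high dose was 65.2% of that at the low dose for complex I, 48.7% for complex II, 62.9% for complex III, 72.5% for complex IV and 51.9% for complex V. At the medium dose 15 members were lower and 1 higher, where 6.17% and 2.16% of all genes were, with a median of -0.19. Against the vehicle mean in place of the low dose, 47 were lower and 4 higher (34.3% and 31% of all genes).

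The lowest members in Polygala were ATP5F1A, SDHA and UQCRC1. ATP5F1A read 465, 373 and 131 CPM from low to high dose, a log2 difference of -1.81. SDHA read 161, 135 and 48.3 CPM (-1.72), and UQCRC1, a core protein of complex III, 175, 149 and 55.7 (-1.64). All 3 were lower at each step of dose. Other members of complex V and complex I are given as examples chosen after their values were seen. In complex V, ATP5F1B read 557, 501 and 210 CPM (-1.40), ATP5PB of the stator 102, 86.8 and 41.2 (-1.28) and ATP5F1C 103, 86.3 and 45.2 (-1.17). In complex I, NDUFS8 read 61.5, 47.7 and 27.8 CPM (-1.11) and NDUFV1 76.7, 74.1 and 35.2 (-1.10). NDUFV2, the small partner of NDUFV1, read 72.7, 67.0 and 65.0 (-0.16).

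The highest members in Polygala were UQCRQ, ATP5F1E and UQCR11. UQCRQ read 35.4, 38.5 and 51.4 CPM (0.53), ATP5F1E, the epsilon subunit of the head, 97.4, 97.6 and 123 (0.34), and UQCR11 48.5, 45.9 and 59.5 (0.29). Counting error was small beside these differences: the ATP5F1A counts at the low and high dose were 10617 and 3222, with exact 95% Poisson intervals of 10416 to 10821 and 3112 to 3335. Such intervals cover counting error only.

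The members were lower at the high dose of Aucklandia as well, partly different ones. There 48 of 78 were lower than at the low dose (37.6% of all genes) and 1 higher (28.8%), with a median of -0.50 beside -0.09 for all genes. On library size alone the median was -0.36 beside 0.05 for all genes, and 2 were higher. Of the 78, 70 were below 0 and 47 below all 54 replicated libraries, but 11 were lower at each step, since the medium dose gave 0 lower and 5 higher (3% and 3.57% of all genes, median 0.13). For the counts of 70, 47 and 11, shares of all genes are again not given. By complex, 24 of 37 were lower in complex I, 2 of 4 in complex II, 5 of 8 in complex III, 4 of 11 in complex IV and 13 of 18 in complex V. The summed level at the high dose was 72.7, 67.4, 67.6, 80.4 and 62.3% of that at the low dose for complexes I to V. Against the vehicle mean, 49 were lower and 3 higher (36.8% and 29.2% of all genes).

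Of the 3 genes that encode the same mature c subunit of complex V, ATP5MC1 and ATP5MC3 were among the lowest in Aucklandia and ATP5MC2 was less so. ATP5MC1 read 61.6, 65.1 and 17.9 CPM (-1.73) and ATP5MC3 176, 195 and 77.3 (-1.18), while ATP5MC2 read 93.6, 102 and 57.3 (-0.70). COX7C, a small subunit of complex IV, read 58.5, 54.4 and 26.1 CPM (-1.13). UQCRQ read 37.8, 46.4 and 17.1 CPM (-1.10), where Polygala had it higher. SDHA read 161, 160 and 78.2 CPM (-1.03) and ATP5F1A 463, 472 and 241 (-0.94), lower in both extracts. The highest were ATP5MK, a small subunit that helps hold complex V dimers (21, 24.8 and 30.5 CPM, 0.52), NDUFA13, also known as GRIM-19 (55.8, 69.4 and 67.8, 0.28), and NDUFA12 (23.5, 25.5 and 26.2, 0.15). NDUFA13 went the other way in Polygala (53.8, 43.3 and 29.4 CPM, -0.85).

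Of the 78 members, 38 were lower by over 0.32 in both extracts, 16 in Polygala alone, 10 in Aucklandia alone and 14 in neither. Most members were lower in each extract, and the same split over all genes is not given, so no shared response is read from it. Both sets of values use separate low-dose libraries.

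**Figure D5:**
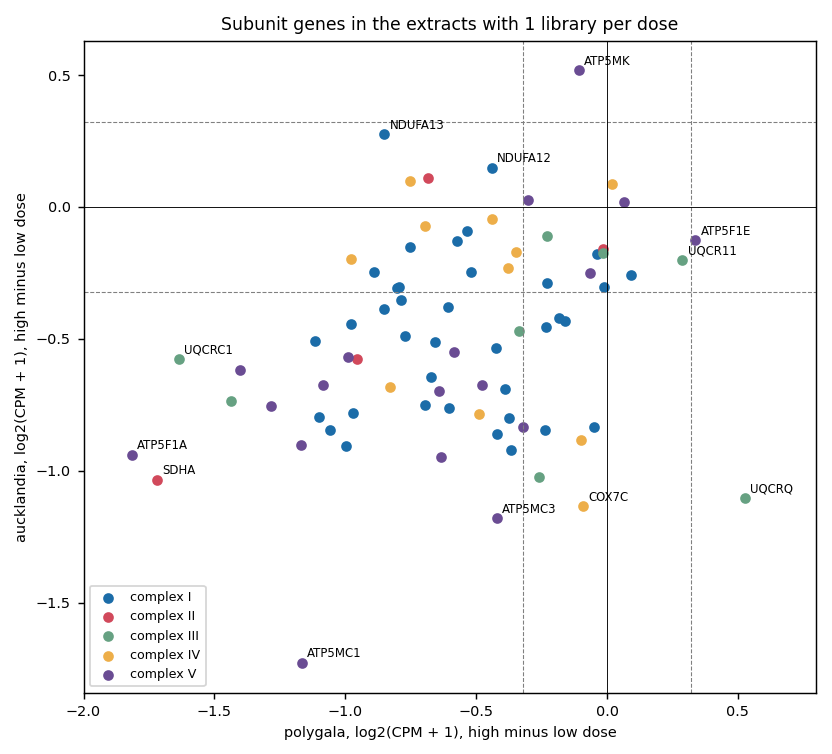
Difference of log2(CPM + 1), high minus low dose, of 78 members in Polygala (horizontal axis) and Aucklandia (vertical axis), 1 library per dose, coloured by complex, with dashed lines at 0.32 in either direction and the 3 lowest and 3 highest members of each extract named. Most points lie in the lower left, 38 of them past the line in both, with UQCRQ at the lower right and NDUFA13 at the upper left.

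The genes around the complexes differed between these 2 extracts. In Polygala 17 of 18 citric acid cycle genes were lower (median -1.16), while 7 of 83 cytosolic ribosomal protein genes were lower and 11 higher (median -0.01). In Aucklandia 73 of 83 cytosolic ribosomal protein genes were lower (median -0.53), and 10 of 18 citric acid cycle genes (median -0.36). Mitochondrial ribosomal protein genes were lower in 27 of 77 in Polygala and 44 of 77 in Aucklandia. Of the biogenesis regulators, 9 of 15 were higher in Polygala, and 2 of 14 were higher and 6 lower in Aucklandia. Of 20 complex IV assembly factors, 8 were higher and 5 lower in Polygala, and 2 higher and 12 lower in Aucklandia. The mitochondrially encoded genes were lower in 7 of 13 in each. The sum of the hepatocyte markers was also lowest at the high doses. It went from 45552 through 37520 to 18006 CPM in Polygala and from 43970 through 36207 to 20318 in Aucklandia, while 60 libraries spanned 18006 to 51761. At the Aucklandia medium dose that sum was lower while the members' total was higher (5992, 6423 and 4126 CPM from low to high). The sum of the 10 markers of other cell types went from 336.57 through 271.12 to 116.51 CPM in Polygala and from 295.12 through 308.88 to 335.78 in Aucklandia. The part of the markers' change in the members' values was not tested.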

How the data were processed

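Poly(A) RNA-seq libraries (MGIEasy directional kit, 100 bp read pairs, RNA integrity number above 7) of HepG2 cells were deposited by the authors as 1 table of expected counts per gene, made with STAR 2.7.3a and RSEM 1.3.3 on hg38 after Trim Galore 0.6.5 and FastQC 0.11.9, per the submitters' processing notes; the annotation release is not given in the sources used here. Expected counts, 10.4% of which had a fraction, were rounded to whole numbers. Totals were 20.7 to 38 M (M for 1e6) per library, which sets the counting precision.

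Symbols came from GENCODE 29 (56558 of 60675 identifiers had one). The members, lists and tests were chosen with earlier results of these data known. All 54 libraries of the 19 replicated groups were fitted together in edgeR 4.0.16 (R 4.3.3, limma 3.58.1): filterByExpr by group, TMM, quasi-likelihood test without covariates, Benjamini-Hochberg over 16924 genes in each comparison, called under 0.05. The fit was tested on simulated data. DESeq2 1.42.0, other scalings, no filter, a replicate block, a length and GC correction, fits of only 2 groups, and left-out libraries were alternatives. CPM used TMM library sizes over 60 libraries. Intervals are 95%.

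Polygala and Aucklandia have no test: log2(CPM + 1) differences past 0.32 are counted among genes that reach 10 CPM in the vehicle mean or the high-dose library. Members named by rule were those called with dose, the highest and lowest per length in each complex, those untested, and the 3 largest and smallest differences in the 1-library extracts; other names were chosen after their values were seen. Replicate numbers were not used to pair the libraries.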

Additional observations from a re-analysis of the deposited data

How the results depend on the processing

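Counts of members called in either direction are given for Yijin, Soshiho, Liriope, Schisandra, Longan and Zizyphus in that order. Shares of all genes called under the changed settings are not given beside them, so the moves are not read as particular to the members. For high against low dose (0 in each), no filter on low counts gave 1, 2, 4, 10, 1 and 1, and fits of only the 2 groups gave 4 in Soshiho. In Schisandra, library size alone gave 1, the replicate block 2, a block by code set and replicate number 2, and the length and GC correction 1, while leaving out 1 library gave 0 to 4. The Soshiho median change was 0.0229 on library size alone and 0.0160 to 0.0921 leaving out 1 library.

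For high dose against vehicle (22, 19, 15, 18, 24 and 17), library size alone gave 38, 36, 31, 34, 44 and 33, no filter 38, 30, 30, 32, 37 and 35, and only the 2 groups 42, 32, 3, 34, 37 and 11; without the 2 libraries that stand apart Schisandra had 28. Leaving out 1 library gave 11 to 18, 7 to 17, 8 to 17, 8 to 16, 15 to 22 and 8 to 22. For low dose against vehicle (15, 13, 11, 33, 23 and 18), library size alone gave 40, 36, 28, 57, 47 and 41, and no filter 29, 30, 29, 50, 39 and 33. Without the 2 libraries the first 4 extracts had 26, 23, 17 and 15, and only the 2 groups gave 25 in Yijin, 25 in Soshiho, 2 in Schisandra, 38 in Longan and 7 in Zizyphus. Leaving out 1 library gave 6 to 15, 3 to 11, 7 to 10, 10 to 44, 13 to 21 and 6 to 26. Library size alone moved the median high-dose change of all genes by 0.0985 to 0.126. The cause of these moves was not tested.

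In Polygala, library size alone gave 5 members higher past the fold and a median of -0.32, a fold of 1.5 gave 0 higher, and the vehicle mean in place of the low dose gave 4. In Aucklandia the higher counts were 2 on library size alone, 0 at 1.5-fold, 2 after correcting for length and GC, and 3 against vehicle; the median was -0.36 on library size alone and -0.40 against vehicle, and NDUFA12 turned to -0.0937 against vehicle. The replicate block gave 23, 24, 16, 19, 25 and 17 at the high dose and changed no count by over 1.5 times other than the 2 in Schisandra with dose. Between 2 groups compared, deviations of same-numbered replicates correlated at r from -0.35 (Zizyphus high and low dose, replicate 2) to 0.41 (Liriope high and low dose, replicate 3). The block was therefore not read as a pairing. The members' median did go together in places: in replicate 1 of Longan and Zizyphus it was above the group mean at every dose (0.04 to 0.17). In Zizyphus replicate 2 it was 0.14, -0.11 and -0.24 from high to low dose. Depth limits the members with the fewest counts, such as NDUFA4L2 and NDUFC2-KCTD14.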
